A study of Mus musculus with 27 samples.

Results

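Wild-type bone marrow was compared with wild-type liver in 6 of the 27 arrays of a mouse tissue series, 3 arrays for each tissue, chosen by their labelled tissue and genotype. The series was built around a knockout-first allele of Mysm1, a histone H2A deubiquitinase, and also holds brain and the heterozygous and homozygous genotypes. The animals compared here carried no knockout-first allele and were of the C57BL/6 background, with no treatment, age or sex given in the labels. Each array held biotin-labelled RNA from 1 snap-frozen tissue, hybridised to an Illumina BeadChip, and the series' design text says that tissue comparisons are between animals. The 3 marrow arrays lay on a different BeadChip from the 3 liver arrays, so chip and tissue cannot be told apart.

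Adult bone marrow makes red cells, granulocytes, monocytes, platelets and B lymphocytes from a small pool of stem and progenitor cells, and many of its cells divide at any time. The liver is made mostly of hepatocytes, which seldom divide, secrete the plasma proteins, and carry out urea synthesis, drug and steroid metabolism, gluconeogenesis and bile acid synthesis. Its other cells include macrophages known as Kupffer cells, sinusoidal endothelium, stellate cells and bile duct cells.

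The marrow arrays were dimmer than the liver arrays. The mean raw signal over all probes was 349.5, 301.4 and 314.3 scanner units on liver arrays 1 to 3 and 194.4, 228.4 and 136.2 on marrow arrays 1 to 3. The groups did not overlap, with means of 321.7 ± 24.9 (SD, n = 3) and 186.3 ± 46.6 (SD, n = 3), and the exact two-sided permutation p of 0.1 is the smallest that 3 against 3 arrays can give. The share of probes with a detection p below 0.05 was 36.2%, 33.2% and 34.8% in liver and 32.8%, 35.4% and 28.6% in marrow, which overlapped (exact permutation p = 0.4), and marrow array 3 was lowest on both measures. Array values correlated at 0.986 to 0.992 within liver, 0.964 to 0.987 within marrow and 0.451 to 0.475 between the tissues, over all kept probes.

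**Figure D1:**
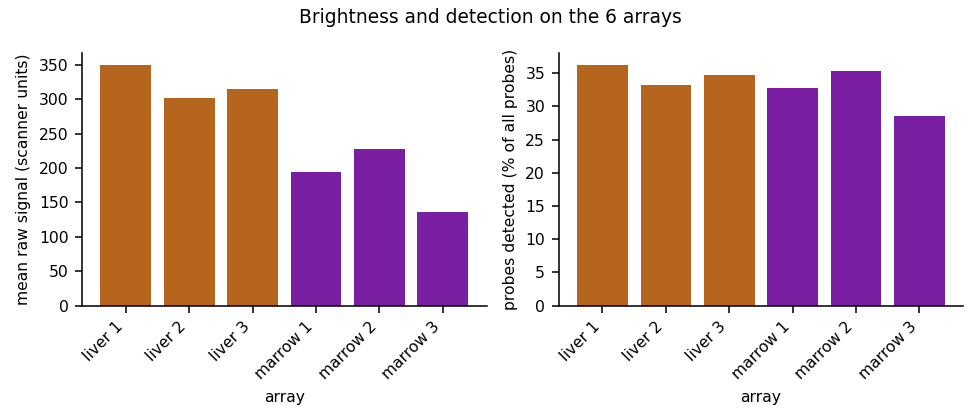
Mean raw signal over all probes in scanner units (left axis) and percentage of probes with a detection p below 0.05 (right axis) for each of the 6 arrays, liver in brown and marrow in purple. Every marrow bar on the left is shorter than every liver bar, with marrow array 3 at 136.2, while the detection shares of the tissues overlap.

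Signals were background-corrected, quantile-normalised over the 6 arrays together and taken to log2, so every array has the same distribution of values and a difference of 1 is a doubling of signal on that scale. A probe was kept if it was detected on all 3 arrays of at least 1 tissue, which left 15427 of 45281 probes and 9181 named genes, each represented by its brightest probe. By limma's moderated test with adjustment over all kept probes, 6902 of the named genes differed at an adjusted p below 0.05, which is 75.2% of those tested, and the arrays of the tissues did not overlap for 78.4%. Over the probes 75.3% differed, 38.3% being higher in marrow and 37.1% in liver, with 10.4% and 11.8% at least 4-fold higher and 78.4% without overlap. Of the named genes, 3577 (39.0%) were higher in marrow and 3325 (36.2%) higher in liver, and 1004 (10.9%) and 1145 (12.5%) were at least 4-fold higher in the respective tissue. A gene can be kept through the tissue where it is high alone, which favours genes that differ, so the counts over genes detected on all 6 arrays are given beside the others. Of those 5968 genes 72.5% differed, and the arrays did not overlap for 76.6%. Higher in marrow were 2699 (45.2%) and higher in liver 1630 (27.3%), and 9.97% and 6.77% were at least 4-fold higher, with a median difference of 0.28 against 0.04 over all named genes.

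These directions are relative to an equal distribution on every array. With the same background correction and no scaling between arrays, the median difference over kept probes was -0.76 (log2), and 21.1% of the calls were higher in marrow in place of 50.8%. With scaling to the 75th percentile the median was 0.45 and that share was 65.3%. Of the genes named below as higher in marrow, Apobec1, Bcl6, C1qa, C1qb, C1qc, Cfp, Dgat1, Dut, Mcm10, Mysm1, Pparg, Vwf and Xist had the opposite sign without scaling, none of them past the threshold there, and Kit was at 0. Cd74, Cebpd, Gar1, Gstm5, Npm1, Stab1 and Xk kept their sign but no longer passed. Alas1, Alpl, Cd8b1, Cebpb, Csf1r, Cxcl12, Fcna, H1f2, H2ac19, Rxrb and Slc40a1, which did not pass, were higher in liver without scaling. Counts without scaling are given below beside many of the lists.

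**Figure D2:**
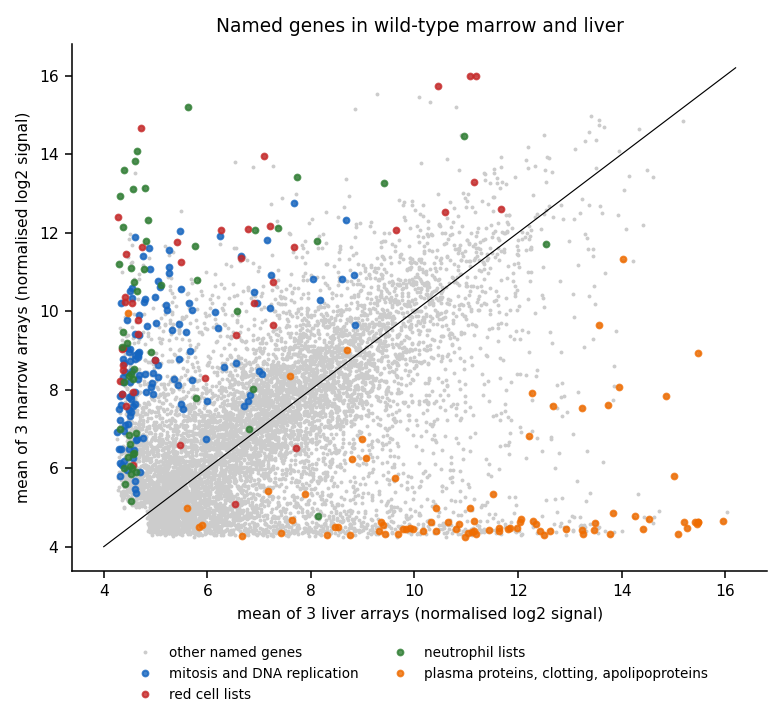
Mean normalised log2 signal of each of the 9181 named genes on the 3 liver arrays (horizontal) and the 3 marrow arrays (vertical), with the line of equality. Mitosis and replication genes (blue), red cell genes (red) and neutrophil genes (green) lie mostly above the line, and plasma protein, clotting and apolipoprotein genes (orange) lie mostly along the floor of the marrow axis.

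The largest difference in favour of marrow was that of a red cell gene. Slc4a1, the band 3 anion exchanger of the red cell membrane, was at 14.71, 14.77 and 14.55 on the marrow arrays and at 5.09, 4.66 and 4.4 on the liver arrays. The difference was 9.96 ± 0.19 (log2, SE) or 993-fold, with an adjusted p of 6.72e-09, and the probe was detected on 1 of the 3 liver arrays. Of the 27 kept members of a list of red cell membrane proteins and regulators, out of 31 with a probe, 26 were higher in marrow and 1 higher in liver, with a median difference of 4.68. Among the 11 members detected on all 6 arrays, 10 were higher in marrow.

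Where a probe was detected on no array of a tissue, only a bound can be given. The dim tissue's value on each array was then raised to the lowest level that any detected probe reached there, unless it was already above it, and the mean of these values was set against the bright tissue's mean. On that basis Trim10, a tripartite motif protein of the red cell lineage, was at least 193-fold higher in marrow, Kel, the Kell blood group protein, at least 100-fold, and Hemgn, a nuclear protein of maturing red cells, at least 47.1-fold. Sptb, the red cell spectrin beta chain, was at 11.66, 11.76 and 11.47 in marrow against 4.75, 4.95 and 4.49 in liver. The smallest differences were those of Xk at 1.1 ± 0.16 and Slc2a1, the widely expressed glucose transporter, which was higher in liver by 1.2 ± 0.12. These are bulk tissues, so fewer cells of a type and less RNA per cell cannot be told apart.

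Haemoglobin and haem synthesis genes were also on the marrow side. Of 15 kept, 14 were higher in marrow, with a median of 3.37, and all 11 members detected on all 6 arrays were among those 14. Without scaling between arrays the count was 10. Alas2, the red cell form of the first enzyme of haem synthesis, was at 14.21, 13.9 and 13.78 in marrow and 6.48, 7.36 and 7.42 in liver, a difference of 6.87 ± 0.26 (adjusted p = 2.03e-07). The globin probes were bright in both tissues. Hbb-bs, an adult beta globin, was at 15.96, 16.03 and 15.96 in marrow and 11.23, 10.54 and 11.47 in liver, so it was above background in liver on all 3 arrays and still 29.8-fold higher in marrow. The marrow values are the highest ranks that quantile normalisation leaves, so the globin differences have a ceiling, and near-identical globin copies may share a probe. Cpox, coproporphyrinogen oxidase, was the exception, at 6.91, 6.59 and 6.09 in liver and 4.89, 6.02 and 4.38 in marrow (adjusted p = 0.0136). Its call was lost without liver array 1 (adjusted p = 0.0545), with no filter (adjusted p = 0.0593) and with 75th percentile scaling (-0.64, adjusted p = 0.0811). It was also lost with unscaled values centred on their median difference (adjusted p = 0.0856).

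The promoter of Hbb-bs (chr7:103827879-103828178, minus strand, GRCm38.p6) is shown because it holds both motifs searched for in the red cell genes. RefSeq's window of 300 bases lies mostly before the gene's start and is written 5′ to 3′ on the gene's strand. Capitals mark AGATAA, the core bound by GATA factors, and CCACACCC, the CACCC box bound by Klf1.
Hbb-bs: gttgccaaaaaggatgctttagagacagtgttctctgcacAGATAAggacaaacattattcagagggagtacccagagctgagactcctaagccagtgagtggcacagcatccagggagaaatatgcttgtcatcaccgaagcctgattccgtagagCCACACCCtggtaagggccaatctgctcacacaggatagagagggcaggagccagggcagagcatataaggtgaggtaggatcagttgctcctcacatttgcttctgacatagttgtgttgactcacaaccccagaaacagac
Either strand was searched. AGATAA was in 9 of the 36 windows of 30 red cell genes higher in marrow (25%, Wilson 95% interval 13.8% to 41.1%), against 11.18% of all 32851 windows. CCACACCC was in 1 of 36 (2.8%, interval 0.5% to 14.2%) against 3.56%. Some genes have more than 1 window, and the intervals here and below count windows as independent, so they may be too narrow. A match of letters is a description, not a bound site.

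After Slc4a1, the largest differences in favour of marrow were those of the neutrophil genes S100a8, S100a9 and Ltf. Primary granule and precursor genes, which are made in early stages, had 11 of 12 kept members higher in marrow with a median of 4.91. Of these 11, Plac8, Cebpe and Serpinb1a alone were detected on all 6 arrays, and the others were kept through marrow. Mpo, myeloperoxidase, was at 13.2, 13.12 and 12.48 in marrow and was detected on no liver array, which makes it at least 277-fold higher. The serine proteases Prtn3, Ctsg and Elane differed by 6.95 ± 0.17, 6.92 ± 0.18 and 6.31 ± 0.2. All 18 kept members of the secondary and tertiary granule list, out of 21 with a probe, were higher in marrow, with a median of 4.28, and 5 of them were detected on all 6 arrays.

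Ltf, the iron-binding lactoferrin, was at 13.98, 14.06 and 13.45 in marrow and 4.66, 4.66 and 4.5 in liver, at least 517-fold higher. Camp, the cathelicidin antimicrobial peptide, was at least 440-fold higher, and Ngp differed by 8.57 ± 0.18. On all of these granule genes marrow array 3, the dimmest, was the lowest of the 3, and the list means were 9.66, 9.64 and 9.13 for primary and 10.38, 10.45 and 9.95 for later granules. The part of brightness in that was not tested.

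Of the 23 kept genes of mature neutrophils with the S100 and stefin A families, 21 were higher in marrow and 1 in liver. S100a8, a subunit of calprotectin, was at 15.19, 15.13 and 15.27 in marrow and 5.59, 5.61 and 5.66 in liver, a difference of 9.58 ± 0.11 (adjusted p = 2.85e-09). Its partner S100a9 was at least 619-fold higher. Ifitm1, an interferon-induced membrane protein, was higher in liver by 0.82 ± 0.12 with its brightest probe, while its other kept probe was higher in marrow by 1.47. Wfdc21 was at 6.79, 6.25 and 7.38 in liver and 6.84, 7.21 and 6.91 in marrow, which overlap (adjusted p = 0.565). It passed as higher in liver in the heterozygous arrays (-1.83, adjusted p = 0.00917). Its sign also turned, without passing, without scaling (-0.833) and without liver array 2 (-0.0958).

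The promoter of S100a8 (chr3:90668821-90669120, plus strand, GRCm38.p6, RefSeq) is shown as the myeloid gene with the largest difference whose window holds the searched letters. Capitals mark GAGGAAGT, an ETS-type element of the kind bound by Spi1, here on the reverse strand.
S100a8: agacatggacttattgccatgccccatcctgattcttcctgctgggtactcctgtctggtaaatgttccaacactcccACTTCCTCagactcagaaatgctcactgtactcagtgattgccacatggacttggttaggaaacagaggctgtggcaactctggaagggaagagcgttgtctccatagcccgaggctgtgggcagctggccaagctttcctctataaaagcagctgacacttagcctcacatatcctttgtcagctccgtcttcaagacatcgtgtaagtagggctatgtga
GAGGAAGT was in 11 of 63 windows of 56 neutrophil and monocyte genes higher in marrow (17.5%, interval 10% to 28.6%) against 3.2% of all windows.

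Monocyte and macrophage genes were higher in marrow or did not pass. Of 19 kept, 15 were higher in marrow, 0 in liver, and 4 did not pass. Without scaling 10 were higher in marrow and 2 in liver. Ly6c1 was at 11.8, 11.91 and 11.22 in marrow and 5.22, 4.76 and 5.58 in liver, and F13a1, the catalytic subunit of clotting factor XIII made by monocytes and platelets, was at least 35.1-fold higher in marrow. Tyrobp and Fcer1g, signalling adaptors of myeloid receptors, differed by 4.15 ± 0.2 and 3.77 ± 0.18. The macrophage receptor Csf1r was at 7.53, 8.27 and 8.02 in liver and 7.88, 7.75 and 7.11 in marrow, a difference of -0.36 ± 0.26 (adjusted p = 0.234). Adgre1, the F4/80 macrophage antigen, was at 6.86, 7.42 and 6.95 against 7.33, 7.53 and 6.96 by its brightest probe, and another probe was higher in liver by 1.16.

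Eosinophil, basophil and mast cell genes had all 12 kept members higher in marrow, of 20 with a probe, against 39.0% of all named genes. Hdc and Gata2 alone were detected on all 6 arrays, and the others were kept through marrow. Prg2, the eosinophil major basic protein, was at 13.44, 13.69 and 13.4 in marrow and 4.85, 4.54 and 4.42 in liver, a difference of 8.9 ± 0.16. Ear6, an eosinophil ribonuclease, was at least 101-fold higher, and the basophil protease Prss34 at least 22.4-fold. Hdc, which makes histamine, was 18.3-fold higher and was detected on all 6 arrays.

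B lineage genes were higher in marrow for all 22 kept members of 33 with a probe, with a median of 2.96, and 5 were detected on all 6 arrays. Cd79b, a signalling chain of the B cell receptor, was at 9.63, 10.92 and 10.51 in marrow and 5.1, 5.38 and 5.58 in liver. Vpreb3 was at 9.75, 11.32 and 11.51 and Igll1, part of the surrogate light chain of precursor B cells, at 7.59, 9.54 and 9.59, with Igll1 detected on no liver array. Marrow array 1 was the lowest on each of these, and the mean of the list was 7.23 on that array against 8.12 and 8.07 on the others. Without marrow array 1 the median was 3.39, and all 22 members stayed above the threshold. The Pax5 probe was detected on none of the 6 arrays.

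Of 16 kept T and NK cell genes, 13 were higher in marrow and 1 in liver, and 10 and 2 without scaling. Nkg7, a cytotoxic granule protein, was at 9.61, 9.43 and 9.07 in marrow against 4.62, 4.91 and 4.64 in liver, and Cd3d, a chain of the T cell receptor complex, differed by 2.9 ± 0.17. Zap70, a T cell kinase, was higher in liver by 1.72 ± 0.23. The brightest Cd8b1 probe did not differ (8.39, 7.84 and 7.73 in liver, 7.97, 8.08 and 7.77 in marrow), while another Cd8b1 probe was higher in marrow by 3.25.

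Megakaryocyte and platelet genes were higher in marrow for all 15 kept members of 25 with a probe, 9 of them detected on no liver array. Ppbp, a platelet chemokine, was at 10.32, 10.94 and 9.67 in marrow and at least 45.2-fold higher, and Pf4, platelet factor 4, was at least 27.7-fold higher. Tubb1, the platelet tubulin, was at 9.17, 9.63 and 8.01. Marrow array 3 was the lowest of the 3 for Ppbp, Pf4 and Tubb1, with list means of 8.08, 8.33 and 7.63. Vwf, which endothelium also makes, differed least, by 1.03 ± 0.25.

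All 22 kept pan-leukocyte genes were higher in marrow, and 19 of them were also detected on every liver array. Coro1a, an actin regulator of blood cells, was at 12.74, 12.79 and 12.64 in marrow and 7.13, 7.27 and 7.29 in liver, a difference of 5.49 ± 0.12 (adjusted p = 1.12e-08). MHC class II presentation genes had 10 of 11 higher in marrow with a median of 1.67, and 4 without scaling. Cd74, the invariant chain, was at 11.2, 11.43 and 11.54 in marrow and 9.44, 9.99 and 9.71 in liver.

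Stem and progenitor genes differed less. Of 13 kept, out of 26 with a probe, 10 were higher in marrow and 3 did not pass, with a median of 1.03, and 4 were higher without scaling. Lmo2 and Lyl1, partners of Tal1 in blood-forming cells, differed by 4.97 ± 0.12 and 4.36 ± 0.12. Kit, the stem cell factor receptor, was at 7.45, 7.57 and 7.22 in marrow and 6.59, 6.24 and 6.3 in liver, a difference of 1.03 ± 0.15. Meis1 and Mecom did not pass, at 0.18 ± 0.12 and -0.2 ± 0.18, and the Cd34 probe was detected on none of the 6 arrays. Meis1 passed as higher in marrow with 75th percentile scaling (0.41, adjusted p = 0.0274) and in the heterozygous arrays (0.53, adjusted p = 0.0114). Without scaling its sign turned (-0.799, adjusted p = 0.089). Mecom passed as higher in liver without marrow array 1 (-0.405, adjusted p = 0.0467), and its sign turned with 75th percentile scaling (0.757, adjusted p = 0.0897).

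**Figure D3:**
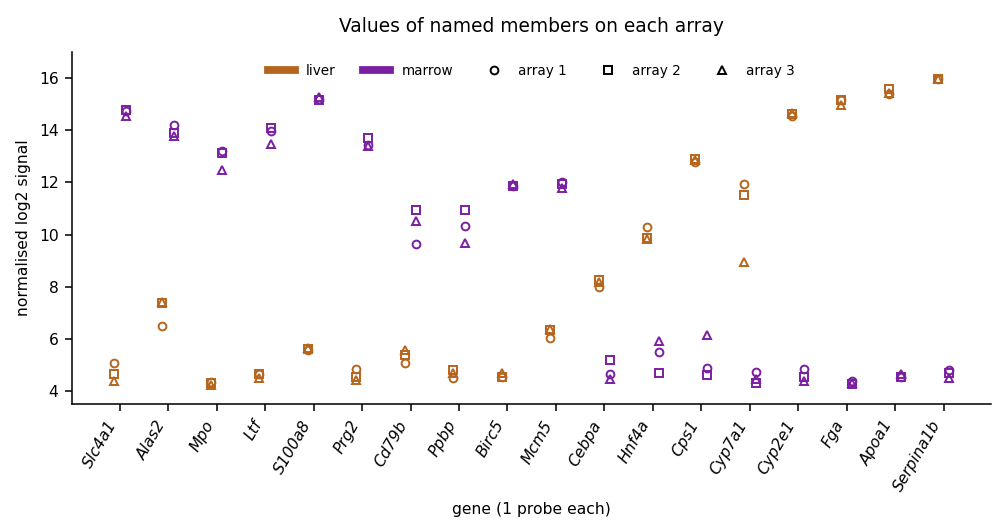
Normalised log2 signal on each array for 18 named genes, 1 probe each, liver in brown and marrow in purple, with the symbol giving the array number. The tissues do not overlap for any of these 18 genes, and the widest range within a tissue is that of Cyp7a1 in liver, from 8.93 to 11.93.

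The transcription factors of the blood lineages were largely on the marrow side, with 21 of 24 kept higher in marrow, 1 higher in liver and 14 higher without scaling. Klf1 and Nfe2, which drive red cell genes, were at 11.41, 11.12 and 11.21 and at 12.14, 12.12 and 11.94 in marrow, against 4.97, 5.96 and 5.54 and 6.44, 6.86 and 5.51 in liver. Their differences were 5.75 ± 0.24 and 5.8 ± 0.31. Tal1, Gfi1b and Gata1 were detected on no liver array and were at least 18.8-fold, 13.4-fold and 6.83-fold higher. Ikzf1, the lymphoid factor Ikaros, differed by 4.43 ± 0.15, Cebpe, needed for late granules, by 3.44 ± 0.21, Irf8 by 2.99 ± 0.19 and Spi1 by at least 4.67-fold.

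The C/EBP family ran both ways. Cebpa, which acts in hepatocytes and in early granulocyte precursors, was at 7.99, 8.25 and 8.17 in liver and 4.67, 5.2 and 4.48 in marrow, where 1 of 3 arrays detected it, so it was higher in liver by 3.35 ± 0.2. Cebpb was at 11.21, 10.78 and 10.55 in liver and 10.41, 10.52 and 10.24 in marrow (difference -0.45 ± 0.19, adjusted p = 0.0554). It passed as higher in liver without scaling (-2.04, adjusted p = 0.00589), with 75th percentile scaling (-0.828), in the processed table (adjusted p = 0.0335), with the replicate block (adjusted p = 0.0452) and in 4 other alternatives. Cebpd was higher in marrow by 1.64 ± 0.17, and by 0.722 without scaling, where it did not pass (adjusted p = 0.174). Myb, a progenitor factor, did not pass at 0.3 ± 0.15. It passed as higher in marrow with 75th percentile scaling (1.27, adjusted p = 0.0127). The same held for unscaled values centred on their median difference (0.827, adjusted p = 0.0307).

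The mitosis and DNA replication lists were higher in marrow for every kept member, each by its brightest probe. Of the 3 kept probes of the mitosis gene Kif23, 1 was higher in liver. All 71 kept mitosis genes, of 93 with a probe, were higher in marrow, with a median of 3.69, and 59 were at least 4-fold higher by their means. The bounds of Kif18a, Cenpi and Ncapg2, counted among the 59, were lower, at 3.22-fold, 3.21-fold and 3.82-fold. Of the 71, 41 were detected on no liver array, and the 13 detected on all 6 arrays were all higher in marrow with a median of 4.71. Birc5, the survivin subunit of the chromosomal passenger complex, was at 11.86, 11.87 and 11.92 in marrow and 4.54, 4.56 and 4.71 in liver, at least 134-fold higher. Nusap1, a spindle protein, was at least 96.2-fold higher, Top2a, the topoisomerase of dividing cells, at least 54.3-fold and the kinase Pbk at least 52.1-fold. Without scaling 65 of the 71 were higher in marrow.

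All 55 kept replication genes, of 67 with a probe, were also higher in marrow, and here 37 were detected on all 6 arrays, every one of them higher. The median was 3.28 over both the 55 and the 37. Mcm5, a subunit of the replicative helicase, was at 12.01, 11.93 and 11.79 in marrow and 6.03, 6.33 and 6.37 in liver, a difference of 5.67 ± 0.14 (adjusted p = 2.31e-08). Mcm6 and Mcm2 differed by 5.07 ± 0.2 and 4.95 ± 0.16, Fen1, the flap endonuclease, by 4.75 ± 0.12, and Uhrf1, which keeps methylation through replication, by 6.18 ± 0.11. E2f2, a transcription factor of the cell cycle, differed by 6.74 ± 0.15. The smallest differences were those of Dut at 0.77 ± 0.16 and Mcm10 at 0.81 ± 0.21, and without scaling 44 of the 55 were higher in marrow.

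Promoters of Prc1 and Mcm3 (RefSeq, GRCm38.p6) are shown because each holds both motifs searched for in its group. Prc1, a midzone microtubule protein, was 94-fold higher in marrow and its window is chr7:80294201-80294500, plus strand. Capitals mark CCAAT, bound by NF-Y, and TTTGAA, the CHR element of late cell cycle genes. Mcm3, another helicase subunit, chosen for its motifs after its values were seen, was higher in marrow by 3.28 and its window is chr1:20820263-20820562, minus strand, with TTTCCCGC, on the reverse strand, and TTTGGCGC, both E2F-type elements, in capitals. The marked matches do not overlap each other.
Prc1: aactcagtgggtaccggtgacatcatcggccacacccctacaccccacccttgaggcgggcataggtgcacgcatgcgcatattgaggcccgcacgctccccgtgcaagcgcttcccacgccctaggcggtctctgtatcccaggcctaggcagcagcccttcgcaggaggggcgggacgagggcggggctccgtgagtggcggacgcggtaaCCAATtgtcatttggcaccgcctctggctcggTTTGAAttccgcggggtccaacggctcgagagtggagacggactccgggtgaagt
Mcm3: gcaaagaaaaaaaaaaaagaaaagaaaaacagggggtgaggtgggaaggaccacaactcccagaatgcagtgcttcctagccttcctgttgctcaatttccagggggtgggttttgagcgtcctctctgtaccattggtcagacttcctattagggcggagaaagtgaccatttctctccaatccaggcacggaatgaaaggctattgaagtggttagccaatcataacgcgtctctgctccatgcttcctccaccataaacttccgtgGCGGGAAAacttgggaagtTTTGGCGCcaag
TTTGAA was in 42 of 66 windows of 59 mitosis genes (63.6%, interval 51.6% to 74.2%) against 17.89% of all windows. CCAAT was in 46 of 66 (69.7%, interval 57.8% to 79.4%) against 37.41%. TTTCCCGC and TTTGGCGC were each in 7 of 56 windows of 46 replication genes (12.5%, interval 6.2% to 23.6%) against 1.07% and 0.51% of all windows. These motifs were known from such genes beforehand, so the shares describe the promoters and not these arrays.

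Replication-dependent histone genes had 42 of 46 kept members higher in marrow, 2 higher in liver and 2 that did not pass. H2ac22 was at 13.87, 13.59 and 13.97 in marrow and 6.61, 6.51 and 6.46 in liver, a difference of 7.28 ± 0.14. Without scaling 35 were higher in marrow and 5 in liver. H2ac18 and H2bc4 went the other way, by 1.44 ± 0.16 and 0.84 ± 0.14. H1f2 and H2ac19 did not pass, but both passed as higher in liver without scaling. Copies of a histone are near-identical, so a probe may take signal from several of them.

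A list of cell cycle inhibitors, quiescence genes and the G1 cyclins and kinases they act on ran in both directions. Among 24 kept, 15 were higher in marrow and 7 in liver, against 39.0% and 36.2% of all named genes. On the marrow side were the cyclin Ccnd3 (3.3 ± 0.14), Cdk2 (3.04 ± 0.14), Gadd45a (4.8 ± 0.18) and the inhibitor Cdkn2d (3.6 ± 0.14). On the liver side was Ccnd1, the D cyclin of hepatocytes, at 11.06, 10.44 and 9.99 in liver and 7.93, 8.02 and 7.61 in marrow, a difference of 2.64 ± 0.27. The inhibitor Cdkn1a was at 8.87, 8.08 and 7.34 in liver and 6.36, 6.31 and 6.78 in marrow, and Klf9 was higher in liver by 3.3 ± 0.15. Without scaling 7 of the 24 were higher in marrow and 8 in liver.

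For the ribosome the counts turned on the scaling. Of 46 kept cytosolic ribosomal protein genes, 45 of them detected on all 6 arrays, 44 were higher in marrow with a median of 1.58, and Rpl12 was at 12.87, 13.14 and 12.96 in marrow against 10.35, 10.5 and 10.5 in liver. Without scaling between arrays 6 were higher in marrow with a median of 0.38. Of 37 ribosome biogenesis genes, 28 were higher in marrow with a median of 0.74, led by Gar1 (2.05 ± 0.2) and Npm1, nucleophosmin (1.87 ± 0.11), but without scaling 0 were higher, 3 were lower and the median was -0.27. Rpl22 was higher in liver by 0.67 ± 0.15.

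**Figure D4:**
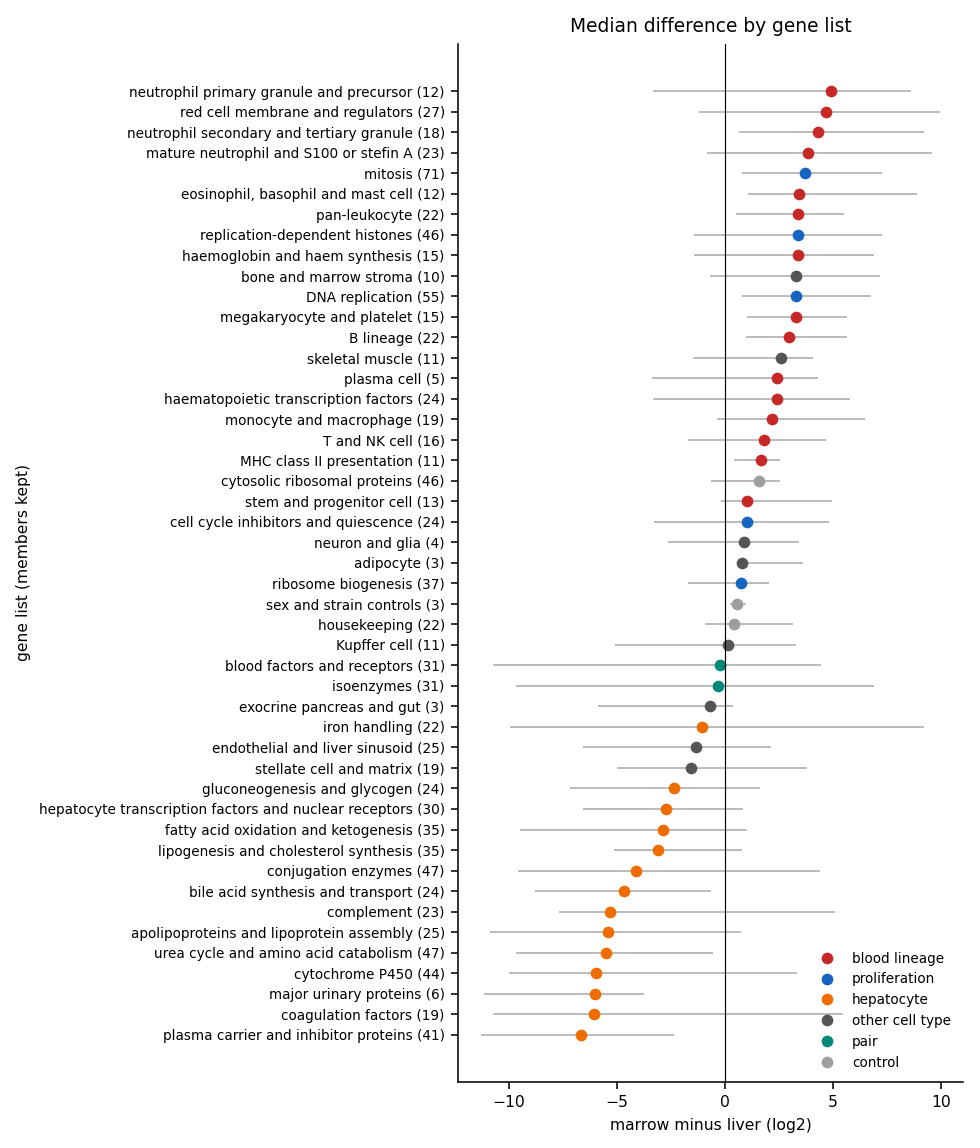
Median marrow minus liver difference (log2, horizontal) of each gene list with at least 3 kept members (vertical, number kept in brackets), coloured by theme, with a grey line from the lowest to the highest member. Neutrophil, red cell and mitosis lists have the highest medians, up to 4.91, and plasma protein, clotting and urinary protein lists the lowest, down to -6.69.

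Hepatocyte secretory genes led the liver side. All 41 kept plasma carrier and inhibitor genes, of 46 with a probe, were higher in liver and at least 4-fold so, with a median of -6.69. Serpina1b, an alpha-1-antitrypsin, was at 15.96 on each liver array and 4.8, 4.68 and 4.51 on the marrow arrays, at least 2080-fold higher, and its liver values are among the ceiling ranks. Ahsg, fetuin A, was at least 1490-fold higher and Hpx, the haem carrier haemopexin, at least 718-fold. The alpha-1-antitrypsin copies are near-identical and may share probe signal. Among the 7 members detected on all 6 arrays the median was -5.08. Hp, haptoglobin, was at 14, 14 and 14.06 in liver and 11.41, 11.51 and 11.03 in marrow, a difference of 2.71 ± 0.15, among the smallest of the list. The only annotated probe of Alb, serum albumin, was detected on 1 of 3 liver arrays at 4.78, 4.81 and 4.77, near background, so albumin could not be used as a marker of liver here.

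Of 19 kept coagulation genes, 18 were higher in liver, with a median of -6.08, and the exception was F13a1, described with the monocyte genes. Fga, the fibrinogen alpha chain, was at 15.15, 15.13 and 14.96 in liver and 4.41, 4.26 and 4.33 in marrow, at least 1140-fold higher. Plg, plasminogen, was at least 189-fold higher, Proc, protein C, at least 140-fold and F9, factor IX, at least 137-fold. F8, factor VIII, which endothelium makes, differed by 1.76 ± 0.23 and was detected on all 6 arrays.

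The promoter of Fga (chr3:83025903-83026202, plus strand, GRCm38.p6, RefSeq) is shown as the secreted or metabolic liver gene with the largest difference whose window holds a searched hepatocyte motif. Capitals mark GTTAATNAT, the HNF1 element, on the reverse strand.
Fga: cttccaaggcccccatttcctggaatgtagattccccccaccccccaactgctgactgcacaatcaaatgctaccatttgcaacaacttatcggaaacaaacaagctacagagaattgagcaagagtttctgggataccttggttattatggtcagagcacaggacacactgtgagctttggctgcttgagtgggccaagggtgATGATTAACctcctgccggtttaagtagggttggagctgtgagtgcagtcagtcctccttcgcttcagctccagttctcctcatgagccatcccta
GTTAATNAT was in 4 of 125 windows of 107 plasma, clotting, apolipoprotein and amino acid catabolism genes higher in liver (3.2%, interval 1.3% to 7.9%), against 0.8% of all windows. CAAAGTCCA, an HNF4 element, was in 2 of 125 (1.6%) against 0.47%, both of them windows of 1 gene, and TTGCGCAA, a C/EBP element, in 1 of 125 (0.8%, interval 0.1% to 4.4%) against 0.18%.

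Apolipoprotein and lipoprotein assembly genes had 23 of 25 kept members higher in liver. Apoa1, the main protein of HDL, was at 15.37, 15.57 and 15.43 in liver and 4.54, 4.54 and 4.66 in marrow, at least 1470-fold higher, and Apoc3 and Apoa2 were at least 1490-fold and 1290-fold higher. Apobec1, the apolipoprotein B mRNA editor, was higher in marrow by 0.74 ± 0.15, and Lpl did not pass at 0.3 ± 0.15. All 6 kept major urinary protein genes were higher in liver, with Mup2 at 16.03 on every liver array and detected on 1 marrow array, and these copies are also near-identical.

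Complement genes ran both ways. Of 23 kept, 17 were higher in liver, among them Cfi, factor I, at least 186-fold, Masp2 at least 123-fold and C9 at least 95-fold. In marrow 5 were higher: Fcnb, a ficolin of granulocytes, at least 25-fold, Cfp, properdin, by 0.81 ± 0.21, and the 3 C1q chains C1qb, C1qc and C1qa by 0.78 ± 0.17, 0.63 ± 0.15 and 0.62 ± 0.19. C1qa lost its call without liver array 1, liver array 2, marrow array 1 or marrow array 2, C1qc with 75th percentile scaling, and all 3 chains in the heterozygous arrays. Fcna, a macrophage ficolin, was at 10.26, 10.24 and 10.54 in liver and 10.69, 10.76 and 9.98 in marrow, which overlap (adjusted p = 0.607). Its call went both ways, passing as higher in marrow without marrow array 3 (0.381, adjusted p = 0.0421) and as higher in liver without scaling (-1.43, adjusted p = 0.0446). Without scaling Fcnb was the one member called higher in marrow, and 18 were higher in liver.

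Metabolic enzymes followed. All 47 kept urea cycle and amino acid catabolism genes were higher in liver, 43 of them at least 4-fold, and all 14 detected on all 6 arrays were among them. Cps1, the first enzyme of the urea cycle, was at 12.76, 12.9 and 12.87 in liver and 4.89, 4.62 and 6.17 in marrow, a difference of 7.61 ± 0.37 (adjusted p = 7.07e-07). Arg1, arginase, was at least 281-fold higher and Gnmt, a methyl group regulator, at least 486-fold. Mat1a, the hepatic methionine adenosyltransferase, differed by 9.67 ± 0.16. The Glul probe, for glutamine synthetase, was near background in liver at 5.29, 5.14 and 5, so its bound of 1.16-fold says little.

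Of 44 kept cytochrome P450 genes, 42 were higher in liver, 1 in marrow and 1 did not pass. Cyp2e1, an ethanol and drug oxidase, was at 14.55, 14.61 and 14.67 in liver and 4.86, 4.56 and 4.41 in marrow, at least 818-fold higher, and Cyp2c70, Cyp2f2 and Cyp3a11 were at least 428-fold, 383-fold and 319-fold higher. Cyp4f18, a leukotriene-metabolising P450 of myeloid cells, was the one on the marrow side, at 8.26, 8.22 and 7.92 against 4.69, 4.71 and 4.94. Conjugation enzymes had 43 of 47 higher in liver and 3 in marrow, namely Mgst2 (4.37 ± 0.15), Mgst3 (2.62 ± 0.14) and Gstm5 (2.13 ± 0.13). Inmt was at least 537-fold and Gsta3 at least 391-fold higher in liver.

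Bile acid synthesis and transport genes were higher in liver for all 24 kept, of 32 with a probe. Cyp7a1, the rate-limiting enzyme of bile acid synthesis, was at 11.93, 11.51 and 8.93 in liver and 4.74, 4.33 and 4.47 in marrow, so it was at least 58.1-fold higher with an SE of 0.7 on a difference of 6.28, and liver array 3 was far below the other livers. Slco1b2, an uptake transporter, was at least 350-fold higher. Abcb4, the phospholipid pump, was at 11.31, 10.82 and 11.01 in liver and 10.45, 10.34 and 10.43 in marrow, a difference of 0.64 ± 0.15.

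Fuel metabolism differed less. Of 35 kept fatty acid oxidation and ketogenesis genes, 33 were higher in liver with a median of -2.9, among them Acaa1b at least 459-fold and Slc27a2 at least 254-fold. Of 24 gluconeogenesis and glycogen genes, 19 were higher in liver, led by Fbp1 at least 102-fold and G6pc at least 96-fold. Of 35 lipogenesis and cholesterol synthesis genes, 30 were higher in liver, with Dgat2 at 11.78, 11.71 and 11.73 against 6.51, 6.97 and 6.32 and Scd1 higher by 4.68 ± 0.24. Dgat1 was higher in marrow by 0.79 ± 0.14 and the Cpt1a probe, near background in both tissues, did not differ.

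Hepatocyte transcription factors and nuclear receptors were higher in liver for 25 of 30 kept, and 17 were detected on no marrow array. Nr1h4, the bile acid receptor FXR, was at 11.11, 10.94 and 10.66 in liver and at least 62.7-fold higher, Foxa3 at least 46.1-fold, Nr1i3, the receptor CAR, at least 37.1-fold and Mlxipl, the carbohydrate-responsive factor ChREBP, at least 36.2-fold. Hnf4a was at 10.27, 9.87 and 9.82 in liver and 5.52, 4.71 and 5.92 in marrow, a difference of 4.6 ± 0.3. Among the 8 members detected on all 6 arrays, 3 were higher in liver and 2, Bcl6 and Pparg, higher in marrow by 0.83 ± 0.24 and 0.76 ± 0.18. Without scaling 28 of the 30 were higher in liver and 0 in marrow. Rxrb did not pass, at 0.19 ± 0.11. It passed as higher in liver without scaling (-1, adjusted p = 0.0484) and as higher in marrow in the heterozygous arrays (0.468, adjusted p = 0.0342).

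Of 31 kept members of isoenzyme and transporter families, 13 were higher in marrow and 15 in liver, against 39.0% and 36.2% of all named genes. Without scaling these counts were 8 and 16. Pkm, the widely expressed pyruvate kinase, was higher in marrow by 4.14 ± 0.14, and Pklr, the liver and red cell form, higher in liver by 1.95 ± 0.23. The glucose transporter Slc2a3 was higher in marrow by 5.15 ± 0.19 and Slc2a2, the hepatocyte transporter, higher in liver by at least 35.3-fold. Car2 and Car1, the red cell carbonic anhydrases, were higher in marrow by 6.36 ± 0.17 and 5.31 ± 0.25, and Car3 was at 12.81, 13.62 and 13.54 in liver and 5.91, 5.77 and 7.62 in marrow. Tfrc, the transferrin receptor, was at 11.71, 11.8 and 11.37 in marrow and 8.82, 7.3 and 6.91 in liver, while Tfr2, the iron-sensing receptor, was higher in liver by 3.66 ± 0.15. Alas1, the general counterpart of Alas2, ranged from 10.74 to 13.58 in liver and from 10.67 to 11.23 in marrow, and did not pass (adjusted p = 0.111). Without liver array 3 its difference was -1.96 in place of -1.21 (adjusted p = 0.00525), and it also passed as higher in liver with the replicate block (adjusted p = 0.0362), without scaling (adjusted p = 0.0117) and in the heterozygous arrays (adjusted p = 0.00545).

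Transferrin and its receptor lay on opposite sides. Trf, transferrin, was at 15.5, 15.5 and 15.45 in liver and 9.06, 9.02 and 8.75 in marrow, a difference of 6.54 ± 0.13, against the opposite direction of its receptor Tfrc. Hamp, hepcidin, was at least 260-fold higher in liver, and Slc40a1, the iron exporter that hepcidin blocks, was at 11.18, 11.18 and 11.16 in liver and 11.46, 11.65 and 10.92 in marrow (difference 0.17 ± 0.19, adjusted p = 0.437). Slc40a1 passed as higher in liver without scaling (-1.43, adjusted p = 0.0416) and as higher in marrow without marrow array 3 (0.382, adjusted p = 0.0257). Cxcr4 was at least 15.9-fold higher in marrow, while its ligand Cxcl12 was at 11.59, 11.34 and 11.33 in liver and 10.92, 11.37 and 10.65 in marrow and did not pass (adjusted p = 0.0772). Cxcl12 passed as higher in liver without scaling (-2.06, adjusted p = 0.0089), with 75th percentile scaling (-0.852, adjusted p = 0.0115), with no background correction (adjusted p = 0.0443) and without marrow array 2 (-0.637, adjusted p = 0.0107).

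Of 31 kept blood factor and receptor genes, 12 were higher in marrow and 13 in liver, and 9 and 16 without scaling, against 39.0% and 36.2% of all named genes. Csf3r and Epor, the receptors for G-CSF and erythropoietin, were higher in marrow by 4.03 ± 0.19 and 3.77 ± 0.15, Csf2ra by 2.55 ± 0.15 and Il7r by 2.37 ± 0.2. Ghr, the growth hormone receptor, and its target Igf1 were higher in liver by 6.07 ± 0.2 and 4.34 ± 0.16, Egfr by 3.75 ± 0.41 and Il6ra by 2.47 ± 0.27.

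Other cell types of each organ were measured with it. Among 11 kept Kupffer cell genes, 4 were higher in liver and 4 in marrow, against 36.2% and 39.0% of all named genes. Without scaling these counts were 5 and 1. Clec4f, a Kupffer cell lectin, was at 9.39, 9.64 and 9.62 in liver and at least 24.6-fold higher, and Vsig4 was higher by 4.43 ± 0.22. Spic, a factor of iron-recycling macrophages, was at 8.82, 8.63 and 8.68 in marrow and 5.36, 5.69 and 5.24 in liver, the opposite direction. Sinusoidal endothelium was represented by Clec4g, higher in liver by 6.57 ± 0.25, and Oit3, at least 8.38-fold higher, while the 3 kept probes of Stab1 disagreed, its brightest being higher in marrow by 2.14 ± 0.15 and the others in liver by 1.4 and 1.59. Of 10 kept bone and marrow stroma genes, 8 were higher in marrow and 2, Cxcl12 and Alpl, did not pass, although both passed as higher in liver without scaling and without marrow array 2, and Alpl with the replicate block (adjusted p = 0.0376). Bglap2, an osteocalcin of bone matrix, was at 11.21, 11.77 and 12.1 and at least 118-fold higher, Ctsk, the osteoclast protease, at least 8.58-fold, and Adipoq, the fat cell hormone, higher by 3.62 ± 0.18.

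Of 11 kept skeletal muscle genes, 7 were higher in marrow and 2, Tnnc1 and Myh7 of slow muscle, higher in liver. The shares over all named genes were 39.0% and 36.2%. All 7 were kept through marrow alone, and without scaling the counts were 5 and 2. The call of Tnnc1 was lost on leaving out any of liver arrays 1 and 2 and marrow arrays 1 and 3. Myl1, a muscle myosin light chain, was at 8, 6.92 and 10.58 on marrow arrays 1 to 3 and was detected on no liver array. Acta1, muscle actin, was at 6.83, 5.9 and 9.46, and Tnni2 at 7.57, 6.95 and 9.19. The mean of the 11 kept muscle genes was 6.36, 5.91 and 7.78 on the marrow arrays, against 4.88 to 4.91 in liver, and array 3 was the highest and also the dimmest. Tnnt1, a slow muscle troponin and the only kept member detected on all 6 arrays, was lowest on array 3, at 6.48, 6.39 and 5.77. The median difference of the list was 2.59, and 1.17 without marrow array 3. Plasma protein genes had means of 5.24, 5.24 and 5.3 on the marrow arrays, so no marrow array stood apart in those liver transcripts.

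**Figure D5:**
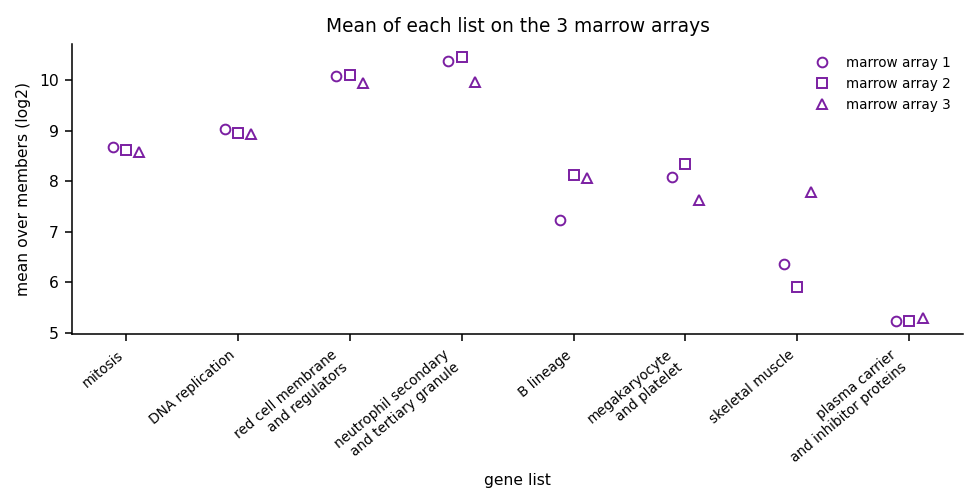
Mean normalised log2 signal over the kept members of 8 gene lists (horizontal) on each of the 3 marrow arrays. Array 1 is lowest for B lineage genes at 7.23, array 3 is lowest for platelet genes at 7.63 and highest for muscle genes at 7.78, and the mitosis means lie between 8.57 and 8.68.

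Control genes were read last. Of 22 kept housekeeping genes, 11 were higher in marrow and 6 in liver, and 3 and 9 without scaling. The shares were 39.0% and 36.2% over all named genes, and 45.2% and 27.3% over those detected on all 6 arrays. Tubb5, a tubulin, was higher in marrow by 3.12 ± 0.13 and Pgk1, a glycolytic enzyme, higher in liver by 0.91 ± 0.16. Mbp, the myelin basic protein gene whose locus is also active in blood cells, was higher in marrow by 3.41 ± 0.12, and the pancreatic amylase Amy2a5 was higher in liver by 5.89 ± 0.5.

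Mysm1 was intact in these animals. The 1 Mysm1 probe detected was at 7.18, 7.19 and 6.92 in liver and 7.49, 7.63 and 7.77 in marrow, higher in marrow by 0.53 ± 0.14 (adjusted p = 0.00897), and the 3 other Mysm1 probes were detected on 0 arrays. Without scaling between arrays the sign turned, at -0.595 (adjusted p = 0.185). Xist was detected on all 6 arrays at 8.69 to 9.82 by its brightest probe, both Kdm5d probes, on the Y chromosome, were detected on 0 arrays, and 1 probe of Eif2s3y, also Y-linked, was detected on 2 of the marrow arrays, whose values were 4.98, 4.48 and 5.21. Of the Y-linked Uty, 1 probe was detected on 2 liver arrays, whose values were 4.56, 4.98 and 4.91, and another on 1 marrow array.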

How the data were processed

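Total RNA of snap-frozen tissue was hybridised to Illumina BeadChips. The authors deposited a non-normalized table of probe intensity values with a detection p-value per probe and array, per the file headers, and a processed table of linear intensity values, normalised between arrays by the authors, which was taken to log2 and served as an alternative. BeadStudio and limma were used by the authors, per the submitters' processing notes, with no version stated there.

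The 3 wild-type liver and 3 wild-type marrow arrays were grouped by their labels and normalised together with limma 3.58.1 in R 4.3.3: normexp background correction from the detection p-values, quantile normalisation, an offset of 16 and log2 (neqc). Probes with a detection p below 0.05 on all 3 arrays of at least 1 tissue were tested with lmFit and eBayes, and p-values were adjusted by Benjamini-Hochberg over 15427 probes. An adjusted p in the report is from this test, a difference printed with a sign is marrow minus liver, one printed after both tissues' values is its size, and a value after ± is a standard error unless marked SD. The number of arrays limits the precision. Whether arrays of different tissues share an animal is not stated in the labels.

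Gene symbols came from GEO's platform annotation, updated through RefSeq: 34885 probes had 1 symbol, 18 several and 10378 none. A gene is represented by its probe with the highest mean over the 6 arrays. Genes named were taken from the 12 largest differences in each direction, up to 6 members per list and direction with the largest differences, the 2 smallest per list, any member of the isoenzyme, blood factor, transcription factor and sex-linked lists, and Mysm1. The members and lists were chosen with earlier results of these data known. Promoter windows are RefSeq's, GRCm38.p6. Alternatives were other scalings, filters, background correction, array weights, a replicate block, the heterozygous arrays, the processed table and leaving out each array. The fit was tested on simulated data.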

Additional observations from a re-analysis of the deposited data

How the results depend on the processing

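The main analysis called 11621 probes, 5904 higher in marrow and 5717 higher in liver. Without scaling between arrays 1898 were higher in marrow and 7115 in liver, and 66 of the 11621 calls turned. Centring those unscaled values on their median difference, an alternative chosen after seeing the data, gave 7448 calls, 3584 of them higher in marrow. Scaling to the 75th percentile left 3678 higher in liver. Requiring detection on all 6 arrays, which tests 9277 probes, gave 6830 calls with 2510 higher in liver. Leaving out 1 array at a time gave 10744 to 12644 calls, 5385 to 6884 higher in marrow and 5359 to 5760 higher in liver. The difference in median raw signal was -18.63 scanner units, against -135.4 for the mean. The heterozygous arrays gave 10528 calls, 45.1% of them higher in marrow, and 55 of the calls turned. Sets of calls from all 27 arrays normalised together (11508), no background correction (11374), the processed table (11595), no filter (11697), a detection p below 0.01 (10794) and array weights (12242) held no turned call.

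Without scaling the differences were -0.476 for Apobec1, -0.359 for Bcl6, -0.473 for C1qa, -0.626 for C1qb, -0.764 for C1qc, -0.693 for Cfp, -0.16 for Dgat1, -0.173 for Dut, -0.000306 for Kit, -0.601 for Mcm10, -0.595 for Mysm1, -0.467 for Pparg, -0.0308 for Vwf and -0.432 for Xist. C1qc was at -0.000741 after centring. Glul was at 0.384 and Tnnc1 at 0.337 with 75th percentile scaling. In the heterozygous arrays Bcl6 was at -0.07 and Pparg at -0.127. The cause was not tested.

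A replicate block on the array number gave 11491 calls. Of the genes named, it changed the call of Actg2, Alas1, Alpl and Cebpb, which then passed as higher in liver, and of no other. The labels do not say whether the numbers pair the arrays. Deviations of same-numbered arrays correlated at 0.043, 0.026 and 0.073, and each liver array correlated best with the marrow array of its own number. Arrays of unlike number correlated at -0.059 to 0.034, all negative but the highest. That was marrow array 2 with liver array 1, at 0.034, above marrow array 2 with its own number. Low signal limits what can be said of genes near background, Alb and Cpt1a among them.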

Other observations

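Genes in none of the lists also differed widely, and those named here were chosen after their values were seen. In marrow Apol11b was at 11.93, 11.59 and 12.38 and Chil4, a chitinase-like protein, at 12.12, 11.91 and 11.5, both detected on no liver array. Slc38a5, an amino acid transporter, Cdkn3, a cell cycle phosphatase, and Asns, asparagine synthetase, were higher in marrow by 6.93 ± 0.12, 6.7 ± 0.14 and 6.13 ± 0.26. Slc38a5 and Cdkn3 were also detected on no liver array, so their sizes rest on liver values at background. In liver Pon1, the paraoxonase carried on HDL, was at 13.54, 13.6 and 13.56, Crp, C-reactive protein, at 13.3, 13.29 and 13.3, and Asgr1, the asialoglycoprotein receptor, at 12.23, 12.26 and 12.38, all detected on no marrow array. Uox, urate oxidase, and Adh1, alcohol dehydrogenase, were higher in liver by 7.73 ± 0.12 and 8.98 ± 0.24. Uox was detected on no marrow array, so its size rests on marrow values at background.

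The 3 livers were alike, with a median SD of 0.138 over 8221 genes detected on all 3, and 18 genes had an SD above 1. Among these were the smooth muscle actins Actg2, at 8.89, 5.03 and 5.43, and Acta2, at 11.04, 8.52 and 8.96, both highest on liver array 1. Depp1 was at 7.83, 9.13 and 10.62 and Upp2 at 7.63, 9.53 and 9.61.

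The median SD in marrow was 0.176 over 6928 genes, and 54 had an SD above 1. In an ordering added after seeing the data, with a gap of at least 0.5 between arrays, 95 genes were highest on array 3, then array 1, then array 2, which is the order from the dimmest array to the brightest, against 0 to 15 genes for each of the other orders. B230209E15Rik was at 8.33, 5.8 and 10.72 on marrow arrays 1 to 3, with raw signals of 274.7, 115.1 and 496.4. The raw signals followed the same order for 38 of the 95 genes. Of the 95 genes, 58 were higher in marrow than in liver, 24 of them at least 4-fold, and 8 belong to a list. The genes ordered were those detected on all 3 marrow arrays. Among these, 2699 of the 5968 also detected on every liver array were higher in marrow. So were 363 of the 439 detected on some liver arrays and 514 of the 521 detected on no liver array. The part of brightness in this order was not tested.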
